A study of Homo sapiens with 3 samples.

Results

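The genes of mitosis and of the passage from G2 into mitosis were followed in A375, an established human melanoma cell line, after exposure to what adipocytes secrete. The group holds 41 genes, chosen by symbol for their known place in mitosis. All 41 were found by symbol among the 58037 genes of the count table, and all 41 were among the 14413 genes whose normalised count averaged 20 or more over the 3 libraries, which are called the genes tested below. They fall into 7 roles, from the cyclins that open mitosis to the proteins that cut the daughter cells apart. RNA sequencing had been done on A375 cells kept in serum-free DMEM (control), in young adipocyte secretome (YA-A375) or in old adipocyte secretome (OA-A375). A secretome is serum-free DMEM in which human subcutaneous preadipocytes, differentiated into adipocytes in culture, had been kept, and the control medium was not conditioned by any cell. The exposure was 24 h by the study's sequencing methods and its series text, while the treatment protocol in the sample labels allows for longer. Each group had 1 library, so no difference below has a replicate check and no p-value was computed.

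A cell that has copied its DNA holds in G2 until cyclin B with its kinase CDK1 becomes active, and then condenses its chromosomes, builds a spindle, waits at the spindle checkpoint until every kinetochore is attached, and separates the chromatids when CDC20 turns on the anaphase-promoting complex. The transcripts of most proteins used in these steps are made late in the cycle and lost as cells return to G1. In quiescent and G1 cells the DREAM complex, with its MuvB core, holds these genes silent at a promoter element called the cell cycle genes homology region (CHR), and later in the cycle MuvB works there with B-MYB (MYBL2) and then with FOXM1 to switch them on, often beside CCAAT boxes bound by NF-Y. The group is widely used as a readout of how many cells in a population are dividing. The study measured A375 proliferation in a separate confluence assay and reported more of it after young than after old adipocyte secretome. Proliferation was not measured on the libraries used here.

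Depth and identity were checked across the series. The libraries held between 18089008 (OA) and 21448195 (control) counts. Of the melanoma markers, MCAM had 6699 counts in control, 7666 with YA and 7517 with OA. MITF was lower with both secretomes, at 1221, 764 and 881 counts, and so was S100B, at 843, 591 and 550. Of the 4 melanoma genes tested, 1 was at least 1.2-fold higher and 2 lower in YA-A375. In OA-A375, 1 was higher and 1 lower. SOX10 was at 0 in all 3 libraries, and MLANA, PMEL, TYR and DCT had at most 22 counts, so these markers of pigment cells were absent or nearly so. Markers of the cells that conditioned the medium also moved between libraries. The list of 10 adipocyte genes summed to 35.9 CPM (counts scaled to the library total) in control, 65.8 with YA and 27.5 with OA, and 5 of its genes were tested, of which 5 were at least 1.2-fold higher in YA-A375, while 3 were higher and 1 lower in OA-A375. As background for every marker list in this paragraph, 17.4% of all genes tested passed that limit upward and 16.4% downward in YA-A375. In OA-A375 the background was 21.1% and 21.5%. Counts of single genes in this paragraph are raw and not scaled for depth, which was lowest in OA. LPL had 353 counts in control, 583 with YA and 30 with OA, PLIN4 had 284, 579 and 321, LIPE had 79, 153 and 67, and CIDEC had 6, 31 and 36. The defining markers LEP, ADIPOQ and PLIN1 had at most 5 counts in any library. The list of 9 fibroblast and preadipocyte genes summed to 35.0, 44.4 and 30.7 CPM, with 3 of 5 tested genes higher and 1 lower in YA-A375 and 2 higher and 2 lower in OA-A375. DCN had 13 counts in control, 138 with YA and 24 with OA, COL1A1 had 75, 117 and 84, LUM had 66, 101 and 58, PDGFRB had 515, 568 and 334, and PDGFRA had 76, 20 and 51. COL1A2, COL3A1 and DPT had at most 2 counts in any library. The part of these transcripts in the results below was not tested.

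Promoter stretches of 7 members are shown because most members share short sequence elements there. Each covers 130 bases before and 20 bases after the gene start in RefSeq on GRCh38.p14 and is written 5′ to 3′ along the gene's own strand. Capitals mark the CHR letters (TTTGAA or TTCGAA) and the CCAAT letters wherever they occur on either strand, so that ATTGG is a CCAAT on the opposite strand. CDC20, HMMR, PLK1, BUB1 and KIF2C are shown as members with a large change in OA-A375, CCNB2 for its row of CCAAT boxes, and MKI67 as the member with the largest change in YA-A375. The stretches lie at chr1:43358851-43359000 on the plus strand (CDC20), chr5:163460502-163460651 on the plus strand (HMMR), chr16:23678759-23678908 on the plus strand (PLK1), chr2:110678044-110678193 on the minus strand (BUB1), chr15:59105016-59105165 on the plus strand (CCNB2), chr10:128126404-128126553 on the minus strand (MKI67) and chr1:44739707-44739856 on the plus strand (KIF2C).
CDC20: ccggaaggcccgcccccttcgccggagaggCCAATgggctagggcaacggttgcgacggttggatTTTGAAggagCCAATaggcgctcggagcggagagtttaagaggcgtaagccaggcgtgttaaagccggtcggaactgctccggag
HMMR: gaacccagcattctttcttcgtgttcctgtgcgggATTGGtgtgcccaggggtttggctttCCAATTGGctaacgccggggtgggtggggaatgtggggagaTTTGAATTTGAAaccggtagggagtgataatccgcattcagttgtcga
PLK1: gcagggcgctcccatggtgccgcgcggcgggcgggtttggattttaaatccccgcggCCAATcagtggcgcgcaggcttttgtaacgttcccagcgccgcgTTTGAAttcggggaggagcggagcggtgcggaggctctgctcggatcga
BUB1: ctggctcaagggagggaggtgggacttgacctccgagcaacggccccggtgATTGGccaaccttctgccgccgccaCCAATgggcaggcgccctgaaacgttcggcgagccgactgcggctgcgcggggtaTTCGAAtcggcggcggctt
CCNB2: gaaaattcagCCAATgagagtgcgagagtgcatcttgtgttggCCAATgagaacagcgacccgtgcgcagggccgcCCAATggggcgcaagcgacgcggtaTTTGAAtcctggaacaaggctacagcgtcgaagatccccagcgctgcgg
MKI67: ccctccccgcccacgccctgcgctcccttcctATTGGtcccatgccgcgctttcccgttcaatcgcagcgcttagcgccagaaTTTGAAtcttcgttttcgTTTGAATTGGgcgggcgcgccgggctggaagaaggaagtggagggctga
KIF2C: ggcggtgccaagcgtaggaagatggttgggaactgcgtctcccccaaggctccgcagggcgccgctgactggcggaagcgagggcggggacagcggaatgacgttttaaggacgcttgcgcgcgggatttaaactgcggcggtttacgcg
CCNB2 carried 3 CCAAT boxes in this stretch and a CHR 29 bases before its start. HMMR carried a pair of CHR matches side by side, the first bases of which lie 28 and 22 bases before the start. KIF2C held neither set of letters.

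Over the whole 300-base windows, from 250 bases before to 50 after the start, 34 of the 41 members had an entry in the promoter table. CHR letters were present in 27 of these 34 (79.4%), beside 19.5% of the 27305 genes of the table. CCAAT letters were present in 26 (76.5%, beside 39.7% of all genes), and both in the same window in 21 (61.8%, beside 7.85%). Letters of an E2F site, searched as TTTCGCGC, TTTGGCGC, TTTCCCGC, TTTGCCGC and TTTCGCGG on both strands, were in 4 members (11.8%, beside 4.44%), namely CDK1, CENPA, KIF15 and NUSAP1. The members' 42 CHR matches had a median position 28 bases before the start, and 26 of them began between 50 bases before and 30 after it. Their 61 CCAAT matches had a median position 85 bases before the start. In 2 places a CHR and a CCAAT match shared bases. A match of letters is a description of the sequence and not a measured binding site.

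**Figure D1:**
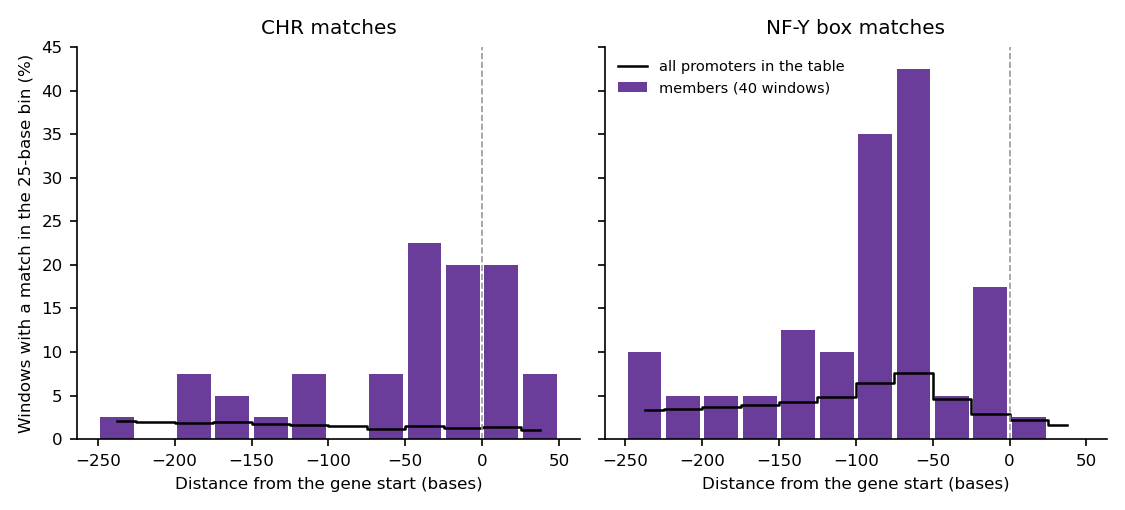
The share of promoter windows, in percent, with a match that begins in each 25-base bin is plotted against distance from the RefSeq gene start in bases, as bars for 40 windows of 34 members and as a black line for all 35116 windows of the table. CHR matches of members pile up from 50 bases before to 25 after the start, reaching 22.5% of windows in a bin where 1.51% of all windows have a match, and CCAAT (NF-Y box) matches reach 42.5% in the bin from 75 to 50 bases before the start, beside 7.62% of all windows.

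The first question was how the members stood in YA-A375 against control. In YA-A375, 19 of the 41 (46.3%) were at least 1.2-fold higher and 0 were at least 1.2-fold lower, where 17.4% of all genes tested were higher and 16.4% lower. The median log2 fold change of the members was 0.24, beside -0.02 over all genes tested, and single members ranged from -0.05 (KIF11) to 0.50 (MKI67). Every fold change here is of counts divided by the library's size factor, with a pseudocount of 1 on the log2 scale, and the 1.2-fold limit is the one named by the study's methods, read as a linear fold. The 95% counting interval of the fold lay above 1 for 33 members (20.6% of all genes tested), wholly above 1.2 for 11 (6.03% of all) and below 1 for 0 (25.6% of all). At 1.5-fold, 0 members were higher in YA-A375, beside 6.25% of all genes tested. Intervals are narrower for genes with more counts, and the least counted member averaged 424. That interval covers counting error only and compares libraries, not conditions, since each group had 1 library. Reads amplified without molecular identifiers are also not independent molecules, so the interval can be too narrow even for that error. More cells in G2 or mitosis and more of these transcripts per cell cannot be told apart in such bulk samples.

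OA-A375 was compared with the same control library. Here 32 of 41 (78.0%) were at least 1.2-fold higher and 0 were lower by that much, where 21.1% of all genes tested were higher and 21.5% lower. Their median log2 fold change was 0.42, beside 0.01 over all genes tested, with a range from -0.11 (CDK1) to 1.05 (CDC20). The counting interval lay above 1 for 39 members (26.6% of all genes tested) and wholly above 1.2 for 27 (9.04% of all), and among the members it lay below 1 for CDK1 alone (24.7% of all). At least 1.5-fold higher were 7.56% of all genes tested and 9 members: CCNB1, PLK1, BUB1, BUB1B, CDC20, KIF2C, HMMR, KIF20A and ANLN.

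OA-A375 was then set against YA-A375 directly. At least 1.2-fold higher in OA-A375 were 15 members (36.6%), where 21.5% of all genes tested were, and 1 member (TOP2A) was lower, where 23.0% of all genes tested were. The median log2 fold change was 0.19 for the members and 0.01 for all genes tested. The counting interval lay above 1 for 30 members (28.9% of all genes tested) and below 1 for 5 (26.2% of all), which were UBE2C, NDC80, TOP2A, MKI67 and CDK1. It lay wholly above 1.2 for 10 (9.03% of all), and 0 members were at least 1.5-fold higher (7.67% of all). The 3 comparisons share libraries pairwise and are not independent of each other.

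Put together, the normalised counts lay in the order control, YA, OA from lowest to highest for 28 of 41 members (68.3%), an order held by 17.1% of all genes tested. In 8 members YA was highest, with OA between it and control (19.5% of members, 12.4% of all genes tested): TPX2, UBE2C, CENPF, NDC80, KIF15, TOP2A, NCAPG and MKI67. In 4 members (BUB3, MAD2L1, KIF11 and ECT2) YA was lowest and OA highest, and CDK1 alone ran from control down to OA. Several of these neighbours differ by less than counting error, as the intervals below show. Summed over the 41 genes, the members' share of all counts was 0.615% (control), 0.738% (YA) and 0.812% (OA), or 6147 CPM (95% exact Poisson interval 6114 to 6180), 7383 (7347 to 7420) and 8120 (8078 to 8162). Among the 7485 genes whose mean normalised count lay within the range of the members (424 to 12679), 9.46% passed 1.2-fold upward in YA-A375 and 15.7% in OA-A375.

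**Figure D2:**
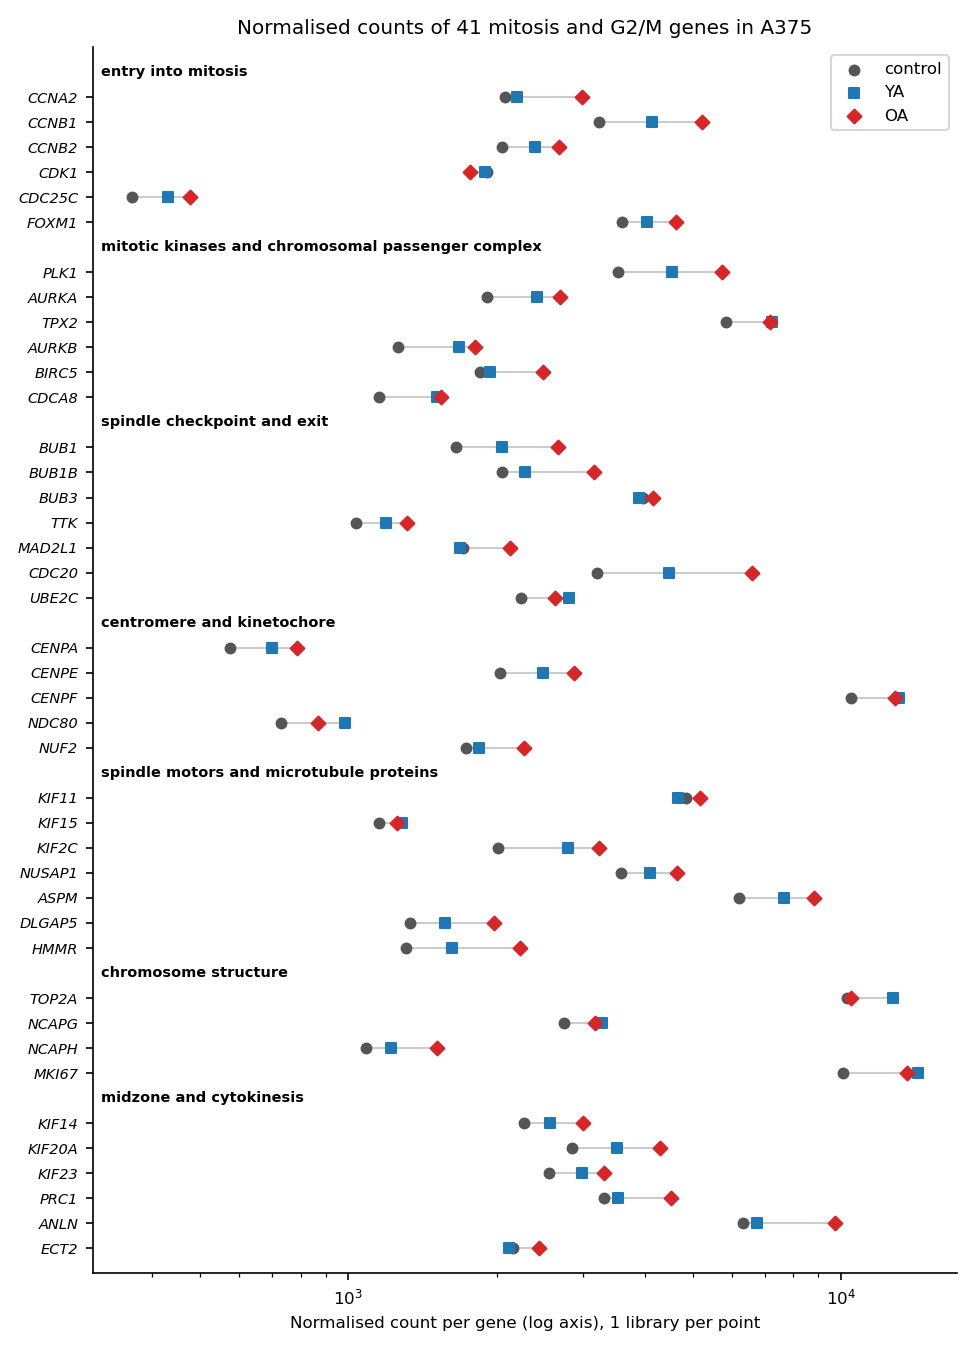
The normalised count of each of the 41 members is plotted on a log axis, 1 point per library, for control (grey circles), YA (blue squares) and OA (red diamonds), with members grouped by role. Control is the lowest point in 36 members, and OA is the highest in 32.

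The counts per role stand beside 17.4% of all genes tested at least 1.2-fold higher in YA-A375 and 21.1% in OA-A375. The 6 genes of entry into mitosis gave 1 higher in YA-A375 (16.7%) and 5 in OA-A375 (83.3%), with a median log2 fold change of 0.20 and 0.39. CCNB1, the cyclin B1 that activates CDK1 at the onset of mitosis, had a normalised count of 3228 in control, 4136 with YA and 5224 with OA. It was therefore 1.28-fold higher in YA-A375 (95% counting interval 1.22 to 1.34) and 1.62-fold higher in OA-A375 (1.55 to 1.69). CCNA2, the cyclin A2 of S phase and G2, was close in control (2083) and YA (2197) and stood apart in OA (2979), 1.43-fold above control (1.35 to 1.51). CCNB2, another B-type cyclin, had 2050 in control, 2398 with YA and 2672 with OA, and was 1.30-fold higher in OA-A375 (1.23 to 1.38) and 1.17-fold in YA-A375 (1.10 to 1.24). FOXM1, a transcription factor of late cell cycle genes, had 3601 in control, 4038 with YA and 4616 with OA, or 1.28-fold higher in OA-A375 (1.23 to 1.34). CDC25C, a phosphatase that releases CDK1 from inhibition, was the least counted member, with 364 in control, 431 with YA and 477 with OA and a wide interval of 1.14 to 1.51 around 1.31-fold in OA-A375. These 5 genes were lowest in control and highest with OA. CDK1 itself ran the other way from its cyclins. It had 1913 in control, 1891 with YA and 1769 with OA, 0.925 of control in OA-A375 (0.865 to 0.988), which does not pass 1.2-fold.

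The mitotic kinases and the chromosomal passenger complex were mostly higher: 5 of 6 rose in YA-A375 and 6 of 6 in OA-A375, with a median log2 fold change of 0.35 and 0.46. PLK1, the polo-like kinase that acts at centrosomes, kinetochores and the midbody, had 3528 in control, 4544 with YA and 5742 with OA. This was 1.29-fold higher in YA-A375 (1.23 to 1.34) and 1.63-fold higher in OA-A375 (1.56 to 1.70), and OA stood 1.26-fold above YA (1.21 to 1.31). AURKA, the Aurora kinase of spindle poles, had 1908 in control, 2418 with YA and 2684 with OA. Its activator TPX2 had 5840 in control and nearly the same level in YA (7255) and OA (7188), so it rose 1.24-fold (1.2 to 1.28) and 1.23-fold (1.19 to 1.27) and OA did not differ from YA beyond counting error. AURKB, the Aurora kinase of the passenger complex, rose 1.33-fold in YA-A375 (1.24 to 1.43) and 1.43-fold in OA-A375 (1.33 to 1.54), from 1260 in control to 1675 and 1805. CDCA8 (borealin), another subunit of that complex, followed it, at 1151, 1510 and 1542 in control, YA and OA. The subunit BIRC5 (survivin) had 1850 in control, 1936 with YA and 2484 with OA. It was 1.34-fold higher in OA-A375 (1.26 to 1.43), while its interval in YA-A375 (0.983 to 1.11) held 1.

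Among the 7 genes of the spindle checkpoint and of exit from mitosis, 3 rose in YA-A375 and 5 in OA-A375. Of the 7, 4 (57.1%) stood at least 1.2-fold higher in OA than in YA, beside 21.5% of all genes tested. CDC20, which activates the anaphase-promoting complex once the checkpoint is satisfied, had the largest change of any member. Its normalised count was 3193 in control, 4481 with YA and 6611 with OA. That is 1.40-fold above control in YA-A375 (1.34 to 1.47) and 2.07-fold in OA-A375 (1.98 to 2.16), with OA 1.48-fold above YA (1.42 to 1.53). The annotated pseudogene CDC20P1, picked out after its values were seen, had 65 counts in control, 83 with YA and 120 with OA. Reads can be split between it and CDC20, and its counts are small beside the 3389, 4741 and 5890 raw counts of CDC20. BUB1, a checkpoint kinase of the kinetochore, had 1650 in control, 2052 with YA and 2660 with OA, 1.24-fold (1.17 to 1.33) and 1.61-fold (1.52 to 1.72) above control. BUB1B (BUBR1), a part of the inhibitor that holds CDC20 in check, stood at 2053 in control, 2288 with YA and 3158 with OA, 1.54-fold above control in OA-A375 (1.45 to 1.63) and 1.11-fold in YA-A375 (1.05 to 1.18). MAD2L1 (MAD2), another part of that inhibitor, had 1708 and 1685 in control and YA and 2127 in OA, 1.25-fold above control (1.17 to 1.33). For both parts of the inhibitor, control and YA lay closer to each other than to OA. BUB3, which carries BUB1 and BUBR1 to kinetochores, kept within 1.2-fold of control in both, at 3970, 3883 and 4162. TTK (MPS1), the kinase that starts checkpoint signalling, was 1.27-fold higher in OA-A375 (1.17 to 1.38), from 1036 in control through 1194 in YA to 1312 in OA. UBE2C, the ubiquitin-conjugating enzyme that works with the anaphase-promoting complex, was highest in YA. It had 2236 in control, 2806 with YA and 2631 with OA, 1.25-fold above control in YA-A375 (1.19 to 1.33) and 1.18-fold in OA-A375 (1.11 to 1.25), the latter under the limit.

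Of the 5 centromere and kinetochore genes, 4 rose in YA-A375 and 4 in OA-A375, though not the same 4. CENPA, the histone H3 variant that marks centromeres, had 575 in control, 701 with YA and 788 with OA, 1.37-fold above control in OA-A375 (1.23 to 1.53). CENPE, a kinesin that carries chromosomes along the spindle, had 2035 in control, 2479 with YA and 2866 with OA, 1.41-fold above control in OA-A375 (1.33 to 1.49). CENPF, a large kinetochore and nuclear matrix protein, was among the most counted members and rose alike in both, from 10477 to 13145 in YA and 12902 in OA. NDC80 and NUF2 are partners in the complex that binds spindle microtubules, and their counts differed in order. NDC80 was highest in YA (730 in control, 983 in YA, 867 in OA), rising 1.35-fold in YA-A375 (1.23 to 1.48) and standing at 1.19-fold in OA-A375 (1.07 to 1.31). NUF2 was highest in OA (1736 in control, 1839 in YA, 2278 in OA), rising 1.31-fold in OA-A375 (1.23 to 1.40) and standing at 1.06-fold in YA-A375 (0.994 to 1.13).

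The 7 spindle motors and microtubule proteins gave 3 higher in YA-A375 and 5 in OA-A375, with median log2 fold changes of 0.24 and 0.51. HMMR, a microtubule-binding protein of spindle poles, had 1309 in control, 1624 with YA and 2234 with OA. After CDC20 it had the largest change in OA-A375, 1.71-fold (1.59 to 1.83). KIF2C (MCAK), a kinesin that takes apart microtubule ends, had 2008 in control, 2791 with YA and 3227 with OA, 1.39-fold (1.31 to 1.47) and 1.61-fold (1.52 to 1.70) above control. ASPM, a spindle pole protein, rose 1.23-fold (1.19 to 1.27) and 1.42-fold (1.38 to 1.47), from 6202 to 7646 and 8814. DLGAP5 (HURP), which stabilises kinetochore microtubules, had 1333 in control, 1573 with YA and 1979 with OA, and passed the limit in OA-A375 at 1.48-fold (1.38 to 1.59). NUSAP1, which bundles microtubules around chromosomes, did so at 1.30-fold (1.24 to 1.36), with 3572, 4094 and 4642. These 5 genes were lowest in control and highest with OA. The kinesins that push the spindle poles apart did not pass the limit in either comparison with control. KIF11 (Eg5) had 4845 in control, 4672 with YA and 5163 with OA, and KIF15 had 1151, 1283 and 1254.

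The 4 genes of chromosome structure had a median log2 fold change of -0.06 between OA and YA, the lowest of the 7 roles. TOP2A, the topoisomerase that untangles replicated DNA, had 10276 in control, 12765 with YA and 10463 with OA. It was 1.24-fold higher in YA-A375 (1.21 to 1.27), within counting error of control in OA-A375 at 1.02 (0.990 to 1.05), and 0.820 of YA in OA-A375 (0.798 to 0.842). MKI67, which coats mitotic chromosomes and is the gene of the Ki-67 proliferation marker, had 10090 in control, 14318 with YA and 13628 with OA. It rose 1.42-fold in YA-A375 (1.38 to 1.45) and 1.35-fold in OA-A375 (1.32 to 1.39), and OA was 0.952 of YA (0.929 to 0.975), a difference beyond counting error and under the limit. The condensin I subunits parted: NCAPG had 2735 in control, 3267 with YA and 3161 with OA and passed the limit in neither, while NCAPH had 1086, 1222 and 1513 and was 1.39-fold higher in OA-A375 (1.29 to 1.51).

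Of the 6 genes of the spindle midzone and cytokinesis, 1 rose in YA-A375 (KIF20A) and 5 in OA-A375. These were 16.7% and 83.3%, beside 17.4% and 21.1% of all genes tested. ANLN (anillin), the scaffold of the contractile ring, had 6317 in control, 6747 with YA and 9710 with OA, so that control and YA lay close and OA stood 1.54-fold above control (1.49 to 1.59). KIF20A (MKLP2), a midzone kinesin, had 2841 in control, 3507 with YA and 4286 with OA, 1.23-fold (1.18 to 1.30) and 1.51-fold (1.44 to 1.58) above control. PRC1, which bundles the antiparallel microtubules of the midzone, had 3306, 3535 and 4526 in control, YA and OA, 1.37-fold above control in OA-A375 (1.31 to 1.43). The kinesins KIF14 (2273, 2563 and 2997) and KIF23 (2556, 2982 and 3298) rose 1.32-fold (1.25 to 1.39) and 1.29-fold (1.22 to 1.36) in OA-A375. All 5 of these had their lowest level in control and their highest with OA. ECT2, the exchange factor that switches on RhoA at the cleavage site, did not pass the limit, with 2159 in control, 2123 with YA and 2436 with OA.

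**Figure D3:**
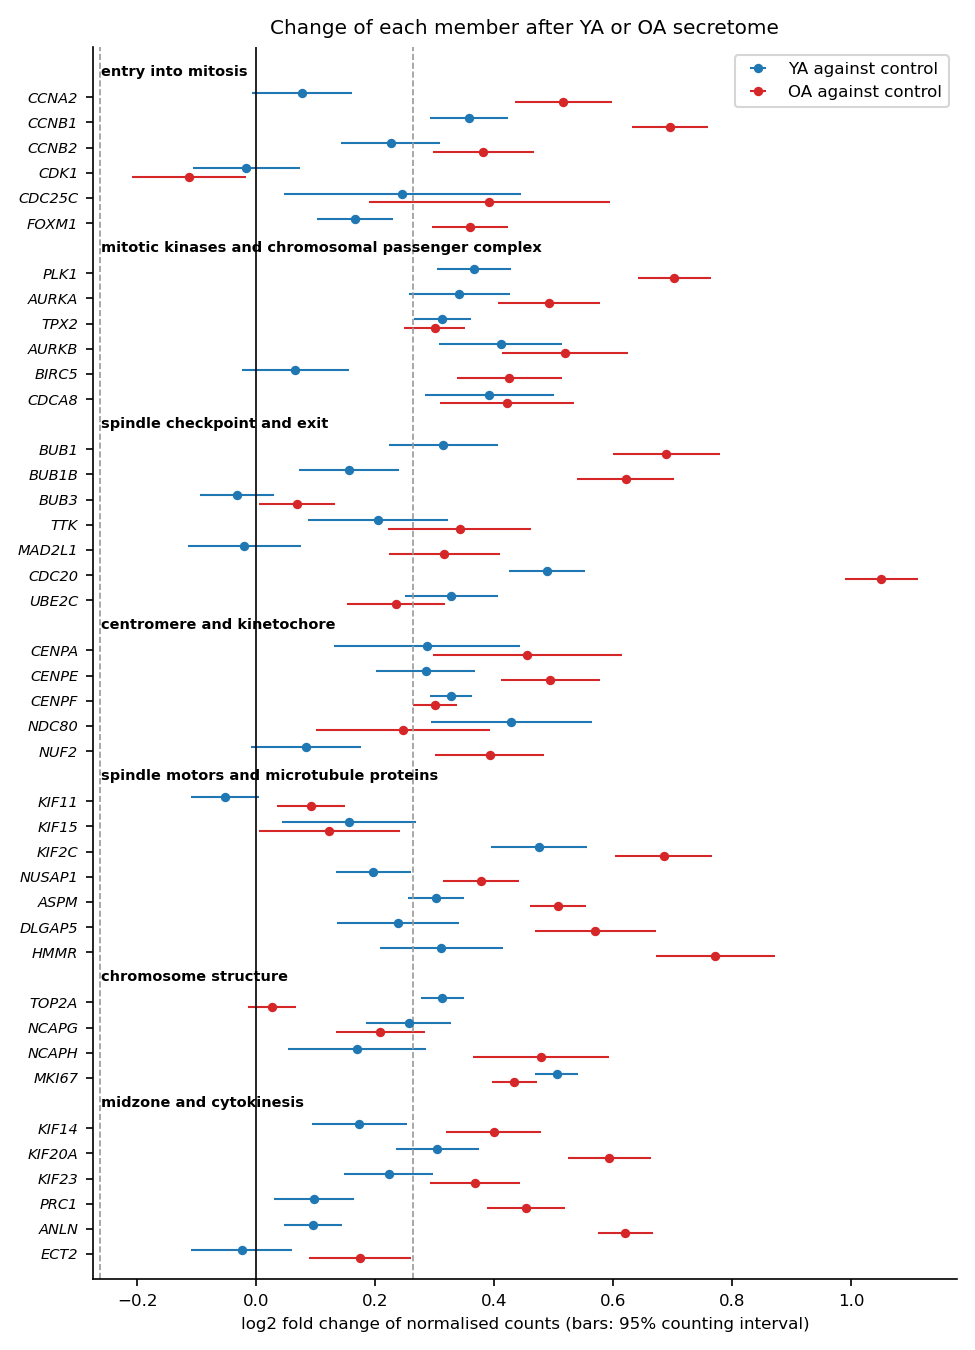
The log2 fold change of normalised counts against control is plotted for each member, in YA (blue) and OA (red), with bars for the 95% counting interval and dashed lines at 1.2-fold higher and lower. Members are grouped by role, and 19 blue and 32 red points lie at or beyond the right-hand dashed line, with CDC20 farthest at 1.05 and CDK1 the lowest at -0.11.

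Levels were compared between members only per kilobase of exon, as mean normalised count over the 3 libraries divided by the length of all exons joined. CDC20 was the most abundant on that scale (2337 per kb), followed by UBE2C (1989), TPX2 (1876), TOP2A (1735) and CCNB1 (1640). CDC25C (127), KIF15 (233) and NDC80 (239) were the least abundant. A member's log2 fold change showed little relation to the log2 of its mean normalised count. Pearson r was 0.11 in YA-A375 and 0.02 in OA-A375 across the 41 genes, which share libraries and are not independent replicates.

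The remaining genes of mitosis were taken from lists outside the 41. A list of 51 other mitotic genes regulated in the cycle gave 17 higher and 0 lower in YA-A375 and 32 higher and 1 lower (BORA) in OA-A375, with median log2 fold changes of 0.20 and 0.31. The higher genes were 33.3% in YA-A375 and 62.7% in OA-A375, beside 17.4% and 21.1% of all genes tested. Lower were 16.4% and 21.5% of all genes tested. CKS2, a small subunit of cyclin-dependent kinases, had a normalised count of 1484 in control, 1695 with YA and 2609 with OA, 1.76-fold above control in OA-A375 (1.65 to 1.88). PTTG1 (securin), the inhibitor of separase, had 2016, 2221 and 3151, 1.56-fold above control in OA-A375 (1.48 to 1.65). Separase itself, ESPL1, was highest in YA, at 1616 in control, 2144 with YA and 1930 with OA. TROAP, a microtubule-associated protein, rose in both, from 685 to 1004 and 1143. CDC25B, the phosphatase that first activates CDK1 at centrosomes, had 4541 in control, 6588 with YA and 5303 with OA, 1.45-fold above control in YA-A375 (1.40 to 1.51) and 1.17-fold in OA-A375 (1.12 to 1.22).

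The anaphase-promoting complex and cohesin, machines of mitosis that also work in other phases, were counted apart. Of 15 anaphase-promoting complex genes, 3 were higher and 3 lower in YA-A375 and 1 higher and 1 lower in OA-A375, with medians of -0.02 and -0.05. The YA-A375 counts lay near the background, since 17.4% of all genes tested were higher and 16.4% lower. In OA-A375 they were 6.67% each way, under the 21.1% and 21.5% of all genes tested. ANAPC5 (2648, 2906 and 3372 in control, YA and OA) was the gene that rose in OA-A375, and CDC26 (381, 279 and 305) the gene that fell. ANAPC15 had few reads, with 69, 102 and 56 raw counts, and FZR1 (CDH1), the activator that follows CDC20 in late mitosis, had normalised counts of 981, 1270 and 1089. Of 10 genes of cohesin, which holds sister chromatids together, and its loader, 0 were higher in either comparison and 2 were lower in OA-A375, STAG1 (1958, 1638 and 1538) and MAU2 (2756, 2991 and 2128). Those 2 of 10 lay near the background share, 21.5% of all genes tested being lower in OA-A375. RAD21, the subunit that separase cuts, had 7193, 8072 and 8381.

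The regulators that act on such promoters were listed as well. Of 21 MuvB, DREAM, E2F and NF-Y genes, 2 were higher and 2 lower in YA-A375 and 2 higher and 5 lower in OA-A375, with medians of -0.08 and 0.02. In YA-A375 this was 9.52% each way, beside 17.4% higher and 16.4% lower of all genes tested. In OA-A375 it was 9.52% and 23.8%, beside 21.1% and 21.5%. MYBL2, the B-MYB partner of MuvB, had 3231 in control, 4285 with YA and 3058 with OA, 1.33-fold above control in YA-A375 (1.27 to 1.39) and 0.946 of control in OA-A375 (0.900 to 0.995). The MuvB subunits LIN9 (555, 556 and 638) and LIN54 (690, 762 and 700) stayed within 1.2-fold of control. LIN37, with only 30, 50 and 47 raw counts, rose from 28.3 normalised counts in control to 47.3 in YA and 52.8 in OA. LIN52 fell from 305 normalised counts to 211 and 251. RB1, the retinoblastoma protein that restrains E2F factors, had 2770 in control, 2628 with YA and 1965 with OA, 0.709 of control in OA-A375 (0.668 to 0.753). TFDP2, a dimerisation partner of E2F factors, had 1230, 1084 and 826, and E2F1 had 888, 792 and 1035. MYBL2, RB1 and TFDP2 were thus lowest with OA, and E2F1 was lowest with YA.

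The list of 20 brakes on the cycle, of which 18 were tested, went both ways, with 4 higher and 2 lower in YA-A375 and 6 higher and 4 lower in OA-A375. In YA-A375 these were 22.2% and 11.1%, beside 17.4% and 16.4% of all genes tested. In OA-A375 they were 33.3% and 22.2%, beside 21.1% and 21.5%. WEE1, the kinase that holds CDK1 inactive by phosphorylation, stood far apart in YA, with 666 in control, 1303 with YA and 595 with OA. It was 1.96-fold above control in YA-A375 (1.79 to 2.15), and OA was 0.456 of YA (0.412 to 0.505). Of the members, 32 of 41 (78.0%) were higher in OA than in YA by any amount, beside 51.5% of all genes tested. Any link between WEE1 and the members was not tested. PKMYT1, the membrane-bound kinase of the same kind, had 541, 654 and 645. CDKN1A (p21), an inhibitor of cyclin-dependent kinases induced by p53, had 3384 in control, 3590 with YA and 5298 with OA, 1.57-fold above control in OA-A375 (1.5 to 1.64). Its relatives fell in both, CDKN1B (p27) from 912 to 674 in YA and 748 in OA and CDKN1C (p57) from 221 to 151 and 138. CDKN3, a phosphatase of CDK1 and CDK2 whose transcript peaks in mitosis, rose from 486 to 629 and 797. GADD45B, a stress-induced gene, had 237, 266 and 524, and CCNG2, an atypical cyclin of arrested cells, had 737, 708 and 446.

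Genes of the earlier phases came last. Of 40 DNA replication genes, 1 was higher and 9 lower in YA-A375 with a median log2 fold change of -0.15, while 9 were higher and 0 lower in OA-A375 with a median of 0.16. In YA-A375 these were 2.5% and 22.5% of the 40, beside 17.4% and 16.4% of all genes tested. The 9 higher in OA-A375 were 22.5%, near the 21.1% of all genes tested, of which 21.5% were lower. Between OA and YA, 26 of the 40 (65.0%) were higher in OA and 0 lower (median 0.30). At least 1.2-fold higher in OA were also 15 of 41 members (36.6%, median 0.19) and 21.5% of all genes tested. CLSPN (claspin), of the replication checkpoint, had 1214 in control, 877 with YA and 1378 with OA, and UNG, the uracil glycosylase, had 1982, 1527 and 1969. SLBP, which processes histone transcripts in S phase, had 1586, 1433 and 2015, and POLE2, a subunit of DNA polymerase epsilon, had 228, 254 and 313. Of these named genes, CLSPN, UNG and SLBP were lowest with YA. Of the 11 G1 cyclins and kinases, 10 were tested, of which 0 were higher and 4 lower in YA-A375 and 2 higher and 3 lower in OA-A375. The shares over all genes tested were 17.4% higher and 16.4% lower in YA-A375, and 21.1% and 21.5% in OA-A375. CCND1 (cyclin D1), the most counted of the G1 genes, had 14026 in control, 10396 with YA and 16022 with OA, 0.741 of control in YA-A375 (0.723 to 0.760) and 1.14-fold in OA-A375 (1.12 to 1.17). CCND3 had 913, 1060 and 1248, CCNE1 had 345, 262 and 311, and CCNE2 had 209, 167 and 155.

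**Figure D4:**
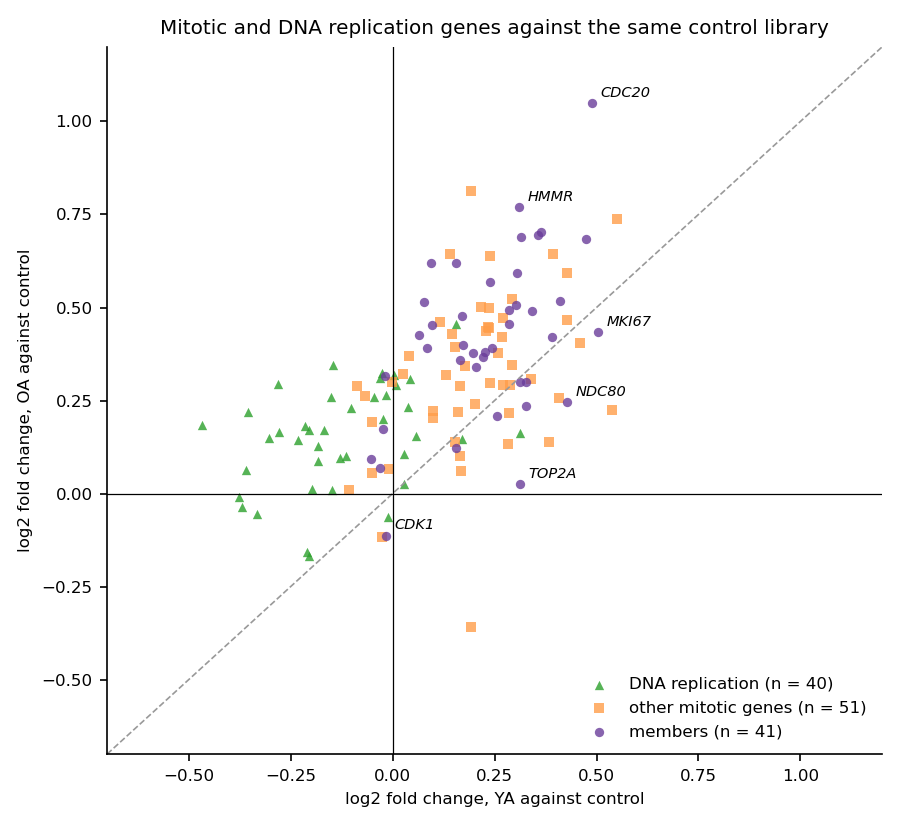
Each point is a gene, with its log2 fold change in YA against control on the horizontal axis and in OA against control on the vertical axis, for the 41 members (circles), 51 other mitotic genes (squares) and 40 DNA replication genes (triangles). The dashed line marks equal change, and both axes share the control library, so the axes are not independent. Members and other mitotic genes lie mostly to the right of 0 and DNA replication genes mostly to its left, with medians of 0.24, 0.20 and -0.15 in YA-A375.

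The promoter letters were counted in these lists too. CHR letters were in 33 of 43 other mitotic genes with a window (76.7%), in 4 of 15 anaphase-promoting complex genes (26.7%) and in 3 of 36 DNA replication genes (8.33%), while E2F letters were in 1 of the 43 (2.33%), 2 of the 15 (13.3%) and 20 of the 36 (55.6%). Within the members, the 7 genes without CHR letters were AURKB, CCNA2, CCNB1, CENPE, KIF20A, KIF2C and NCAPH. Only TTTGAA and TTCGAA were searched, so these genes are not shown to lack the element itself. Their median log2 fold change was 0.30 in YA-A375 and 0.52 in OA-A375, and that of the 27 with CHR letters was 0.24 and 0.39. The largest change, in CDC20, was in a promoter with CHR letters 178 and 65 bases before the start, and the KIF2C promoter printed above, with neither CHR nor CCAAT letters, belonged to a gene that rose in both.

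Transcript length and base composition were compared. The members' median longest transcript was 3487 bases, beside 3509 for the genes tested with an annotation, and their median GC content was 42.5%, beside 47.9%. Among the 4794 genes of lowest GC content, which included 24 of the 41 members, the median log2 fold change over all genes was -0.06 in YA-A375 and -0.02 in OA-A375. Across the members, the log2 fold change and the GC content had a Pearson r of 0.44 in YA-A375 and 0.41 in OA-A375, given as a description over 41 genes that share their libraries. After the median of genes of like length and GC content was subtracted, 24 members passed 1.2-fold upward in YA-A375 and 32 in OA-A375. Of the 14380 genes tested with an annotation, 2555 and 2931 did so. Exons of 9 members (ANLN, CCNA2, CDC25C, CENPA, FOXM1, KIF20A, NCAPG, NUSAP1 and PRC1) overlap those of another counted gene or of an annotated read-through, and whether the counting used strand is not given in the sources used here. Their counts are therefore uncertain. Of the other 32 members, 17 passed 1.2-fold upward in YA-A375 and 24 in OA-A375, where 17.4% and 21.1% of all genes tested did.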

How the data were processed

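Poly(A) RNA libraries had been made from A375 cells with an Agilent SureSelect kit and sequenced on an Illumina NovaSeq. The authors deposited raw counts of reads per gene, as whole numbers, for 58037 genes in 3 libraries, 1 per group. The submitters' processing notes name STAR 2.5.1b, featureCounts, R 3.6.1 and the build hg38, without role or order. The annotation release and the use of strand are not given in the sources used here.

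Counts were scaled by DESeq2 size factors (version 1.42.0 in R 4.3.3) of 1.06 (control), 1.06 (YA) and 0.891 (OA). Genes averaging 20 or more normalised counts were kept (14413 genes, 99.7% of counts). Log2 fold changes used a pseudocount of 1, and a gene was called at 1.2-fold, the cutoff of the study's methods, read as linear. With 1 library per group no test was possible by edgeR or DESeq2, and each fold has an exact 95% binomial (Clopper-Pearson) interval, which covers counting error only. The members and lists were chosen with earlier results of these data known. All members were named, and from each other list the 2 genes with the largest change in OA and in YA, plus 16 taken for their function whatever their values, some of which are also among the former. BORA and the cell type markers named with values were chosen after their values were seen.

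GENCODE release 29 (GRCh38) gave positions for 57433 of 58037 identifiers, matched without version, and promoter windows from RefSeq on GRCh38.p14. Alternatives were scaling by total counts or by TMM (edgeR 4.0.16), a pseudocount of 5, no filter, a minimum mean of 100, a 1.5-fold limit, limits on the counting interval, the mean or the summed counts in place of the median, and, chosen after seeing the data, subtraction of the median over genes of like transcript length and GC content (10 by 10 grid) and the removal of 9 members that overlap another gene. The software was Python 3.11.15 with scipy 1.17.1, pandas 2.3.3, numpy 2.4.6 and matplotlib 3.10.9.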

Additional observations from a re-analysis of the deposited data

Results flagged for a closer look

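A list and 6 genes went opposite ways in the secretome comparisons with control, and because each group had 1 library none of these differences between YA and OA was tested. The median log2 fold change of the 40 DNA replication genes was -0.15 in YA-A375 and 0.16 in OA-A375. CCND1 stood at -0.43 in YA-A375 and 0.19 in OA-A375, CLSPN at -0.47 and 0.18, E2F1 at -0.16 and 0.22, and SLBP at -0.15 and 0.35. MYBL2 stood at 0.41 in YA-A375 and -0.08 in OA-A375, and MAU2 at 0.12 and -0.37. The counting intervals of these 6 genes lay on opposite sides of 1 in the YA and OA comparisons, which share the control library. None of the 41 mitosis and G2/M members had intervals on opposite sides of 1. Only the members and the named genes were looked at in this way. The share of all genes tested with such intervals was not counted, so these numbers have no background beside them.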

How the results depend on the processing

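The members' median log2 fold change ranged over the alternatives from 0.23 to 0.32 in YA-A375, from 0.40 to 0.42 in OA-A375 and from 0.14 to 0.19 for OA against YA. The counts of members past 1.2-fold depended on the limit. At 1.5-fold, 0 members were higher in YA-A375 (19 at 1.2-fold), 9 in OA-A375 (32 at 1.2-fold) and 0 in OA against YA (15 at 1.2-fold), and 0 were lower in OA against YA (1 at 1.2-fold). With a counting interval beyond 1, 33 members were higher in YA-A375, 1 was lower in OA-A375, and 30 were higher and 5 lower in OA against YA. With an interval wholly beyond 1.2-fold, 11 were higher in YA-A375 and 0 lower in OA against YA. TMM or total-count scaling, a pseudocount of 5, no filter and a minimum mean of 100 left these counts of members at 1.2-fold as they were. Over all genes tested, 23 alternative counts moved by over 1.5 times, among them those without a filter (9661 higher and 9306 lower in YA-A375, 8340 and 10895 in OA-A375, 8049 and 10917 in OA against YA), where 1 or 2 reads can decide a gene. No paired analysis was possible because each group had 1 library and the labels carry no replicate numbers.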
